A study of Mus musculus with 23 samples.

Results

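The promyelocytes described here were 89 single cells of mouse bone marrow in which the summed transcripts of Elane, Mpo and Prtn3 reached at least 40 of every 10000 transcripts of the cell. They were taken from 707 micro-dissected cells that held at least 1000 transcripts, so that 12.6% of these cells were counted as promyelocytes (exact 95% binomial interval 10.2% to 15.3%, counting error only). The libraries analysed together hold 952 cells at that depth, of which the other 245 are sorted haematopoietic stem cells (HSC). Micro-dissected replicate 18 and sorted replicate 2 are not among them. Because the transcripts of these 3 genes chose the cells, their levels are given below as a description, without a test.

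The study flushed bone marrow gently, picked out clumps of attached cells, cut them by hand down to single cells and kept a record of which cells had been joined. Each cell was measured with CEL-seq, a method that tags the 3' end of each RNA molecule with a cell barcode and a short random tag, so that a value is an estimated number of transcripts and does not depend on gene length. A library here is 1 set of barcoded cells. The analysed table holds 17 micro-dissected libraries and 4 libraries of sorted HSC, gated as Lineage- Kit+ Sca1+ CD150+ CD48-; micro-dissected replicate 18 comes from a file of its own and sorted replicate 2 was not analysed here. The labels name no strain, age, sex, treatment or animal for either group, so the spread between libraries may be technical. Within the dissected libraries the promyelocytes were set against 140 myelocytes, chosen by a sum of Ngp, Camp and Ltf of at least 100 per 10000 transcripts with Retnlg and Mmp9 summing to less than 20 and with Elane, Mpo and Prtn3 below the promyelocyte threshold. They were also set against the sorted HSC.

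Promyelocytes are the stage of neutrophil formation at which the primary (azurophil) granules are filled. Those granules carry serine proteases, namely neutrophil elastase (Elane), proteinase 3 (Prtn3) and cathepsin G (Ctsg), together with myeloperoxidase (Mpo), the enzyme that makes hypochlorous acid. They are packed on the proteoglycan serglycin (Srgn). Myelocytes, the next stage, stop making primary granule proteins and fill secondary granules with cathelicidin (Camp), lactoferrin (Ltf), lipocalin 2 (Lcn2) and neutrophilic granule protein (Ngp). Ficolin B (Fcnb), a sugar-binding recognition protein, is made by immature granulocytes of mouse marrow, and the transcription factor C/EBPε (Cebpe) is needed for secondary granules.

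The starts of the 5 genes that mark these cells are shown because Ctsg and Fcnb, which the range described below turns on, differ in the letters at their starts. Elane and Prtn3 are neighbours on mm10 chromosome 10, at chr10:79886247-79888215 and chr10:79874476-79883174 on the forward strand, with 3073 bases between them. Mpo lies at chr11:87793581-87804413 on the forward strand, Ctsg at chr14:56099881-56102574 on the reverse strand and Fcnb at chr2:28076378-28084885 on the reverse strand, in the GENCODE annotation. Each line below gives 250 bases before to 50 bases after a RefSeq gene start in GRCm38.p6, read 5′ to 3′ on the strand of the gene: Elane at chr10:79886062-79886361, Prtn3 at chr10:79879417-79879716, Mpo at chr11:87793534-87793833, Ctsg at chr14:56102525-56102824 and Fcnb at chr2:28084829-28085128. The RefSeq starts are not always the GENCODE ones, and the Prtn3 window and most of the Mpo window lie inside the GENCODE genes. Distances below are from the RefSeq starts. Capitals mark, on either strand, the letters GAGGAA, a core bound by the ETS factor PU.1, and TTNNGNAA, a core bound by C/EBP factors.
Elane: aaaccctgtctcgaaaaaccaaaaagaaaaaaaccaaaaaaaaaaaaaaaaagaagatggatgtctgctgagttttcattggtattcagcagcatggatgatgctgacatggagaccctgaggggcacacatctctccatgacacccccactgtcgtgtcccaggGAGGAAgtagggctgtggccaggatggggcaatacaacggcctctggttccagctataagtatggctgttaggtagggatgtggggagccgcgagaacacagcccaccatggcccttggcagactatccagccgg
Prtn3: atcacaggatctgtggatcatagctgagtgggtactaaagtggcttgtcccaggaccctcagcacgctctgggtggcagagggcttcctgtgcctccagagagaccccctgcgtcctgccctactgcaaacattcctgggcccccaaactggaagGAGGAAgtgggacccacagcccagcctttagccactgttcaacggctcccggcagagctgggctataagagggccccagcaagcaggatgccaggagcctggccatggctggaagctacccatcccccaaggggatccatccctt
Mpo: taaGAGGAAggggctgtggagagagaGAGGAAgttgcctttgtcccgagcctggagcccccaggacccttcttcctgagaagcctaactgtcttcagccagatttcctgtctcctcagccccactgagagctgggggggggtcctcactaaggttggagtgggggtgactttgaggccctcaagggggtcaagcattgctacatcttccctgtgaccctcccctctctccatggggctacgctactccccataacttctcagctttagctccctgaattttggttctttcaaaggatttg
Ctsg: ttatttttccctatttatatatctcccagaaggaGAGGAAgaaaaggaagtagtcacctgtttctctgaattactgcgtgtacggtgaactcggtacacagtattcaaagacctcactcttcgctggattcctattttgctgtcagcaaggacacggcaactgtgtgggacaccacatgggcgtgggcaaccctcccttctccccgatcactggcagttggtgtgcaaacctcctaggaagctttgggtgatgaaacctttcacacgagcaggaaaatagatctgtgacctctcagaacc
Fcnb: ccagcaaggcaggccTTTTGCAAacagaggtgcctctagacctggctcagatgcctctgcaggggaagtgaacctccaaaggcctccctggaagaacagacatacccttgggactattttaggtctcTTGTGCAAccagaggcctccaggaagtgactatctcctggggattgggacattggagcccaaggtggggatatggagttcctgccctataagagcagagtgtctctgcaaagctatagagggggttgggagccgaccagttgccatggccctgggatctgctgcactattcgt

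GAGGAA stood 1 time each in Elane, Prtn3 and Ctsg, at 85, 95 and 216 bases from the start, and 2 times in Mpo, and was not found in the Fcnb window. TTNNGNAA was found 2 times in Fcnb, the nearer match at 123 bases from the start, and in none of the other 4 windows. No match of one motif overlapped one of the other. Of the 32851 RefSeq promoters of the same length, 28.3% hold GAGGAA and 40.7% hold TTNNGNAA, so neither is rare. AACNG, a core bound by Myb, was found 1 to 3 times in all 5 windows and in 80.3% of promoters. TGTGGT, a core bound by Runx factors, was found 1 time in Ctsg, in no other window of the 5, and in 16.8% of promoters. A match describes these letters and says nothing of whether a factor binds there.

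All 5 marker genes were present in these cells. Their summed level, over the 12 libraries with at least 3 promyelocytes, was lowest at 121.9, had a median of 190.9 and was highest at 378.8 transcripts per 10000. Over single cells Elane had a median of 59.1 transcripts per 10000 (5.29 to 200.2), Prtn3 52.4 (4.53 to 180.2) and Mpo 37.5 (0 to 224). Elane was the highest of the 3 in 37 cells, Prtn3 in 32 and Mpo in 20, and 2 cells had no Mpo transcript. Over the 89 cells the level of Ctsg had a Spearman rho of 0.63 with Prtn3, 0.59 with Mpo and 0.51 with Elane. For Fcnb the rho values were 0.19 with Elane, −0.04 with Mpo and −0.08 with Prtn3. These are descriptions over cells that share libraries and are divided by the same cell totals. The 5 cells just inside the threshold had 41.02, 41.3, 42.2, 46.8 and 48.5 transcripts of the 3 genes per 10000, and the 5 just outside had 39.8, 39.4, 38.7, 35.7 and 35.6.

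Promyelocytes were found in 16 of the 17 dissected libraries and made up 14.7% ± 11.6 of the cells of a library (SD, n = 17). The share was lowest above 0 in replicate 14, with 1 of 55 cells (1.82%), and highest in replicate 5, with 8 of 18 cells (44.4%). Replicate 6, with 6 cells, held none. The largest number, 14 of 73 cells (19.2%), came from replicate 17. Of the 245 sorted HSC, 0 reached the threshold, which allows a share of up to 1.22%, and the highest sum among them was 16.4 per 10000.

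**Figure D1:**
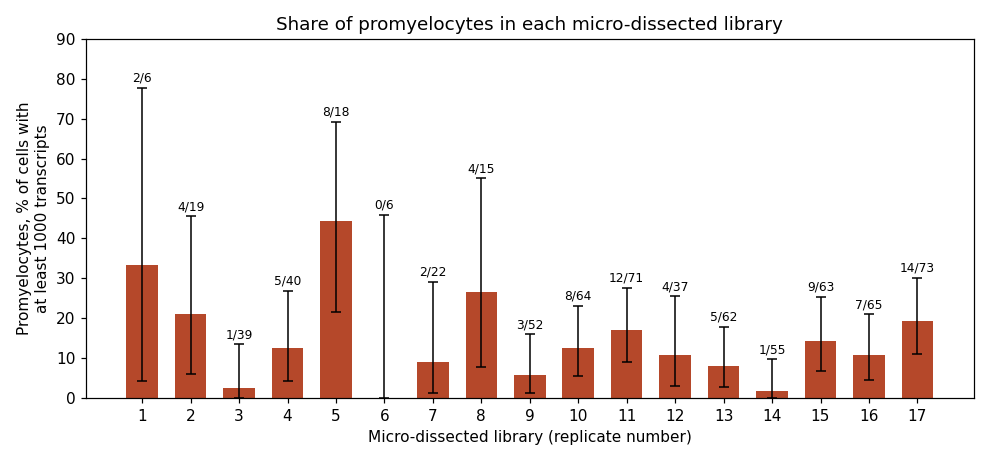
Share of promyelocytes among the dissected cells with at least 1000 transcripts, in percent, for each of the 17 libraries; bars are shares, error bars exact 95% binomial intervals, and the numbers above are promyelocytes over cells. Replicate 5 stands highest with 8 of 18 cells, and the libraries with the most cells lie below 20 percent.

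Numbers in the cell names were read as clump numbers, though the labels do not define them. Of the 89 promyelocytes, 30 had no other cell of their clump at the required depth and 59 had at least 1. A partner was counted once for each promyelocyte of its clump, which gave 86 pairings. The partner was a promyelocyte in 18 (20.9%), a myelocyte in 11 (12.8%), a cell with erythroid genes in 44 (51.2%) and another cell in 13 (15.1%). Among all 707 cells these classes made up 12.6%, 19.8%, 39.3% and 28.3%. Partners share clumps and libraries, so no test was made of these shares.

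A few libraries and cells stood apart. Promyelocytes of replicates 1 to 5 (20 cells) had 44.8 transcripts per 10000 of B630005N14Rik and 33.996 of Slx1b, against 0.171 and 0.496 in the other 69 cells, so the 3 comparisons across genes below were also made without these 5 libraries. Erythroid genes reached at least 20 per 10000 in 6 promyelocytes, 5 of them in replicate 5. A pair of these from 1 clump had near-equal sums, 163 and 159 per 10000 for the 3 rule genes and 38.1 and 39.3 for erythroid genes. In 1 promyelocyte of replicate 16 the data went against the name: it had 1101 transcripts of Prg2 and 124 of Epx per 10000, which encode eosinophil granule proteins, but only 5.29 of Elane, 5.29 of Prtn3 and 37.9 of Mpo. The next highest Prg2 level in any promyelocyte was 27.1. Genes of the secondary granules (Ngp, Camp and Ltf) summed to at least 100 per 10000 in 36 of the 89 cells, so the rule takes in cells that already hold the transcripts of the next stage.

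Transcripts of the listed markers of other marrow cells were mostly low. Over the 12 libraries the summed level of erythroblast markers (16 of the listed genes with a transcript) ran from 0 to 67.6 per 10000 in promyelocytes, with a median of 3.52. That list leaves out the haemoglobin gene named Beta-s, whose own median level in promyelocytes, given further below, was higher than this median. Monocyte and dendritic cell markers (15 genes) had a median of 5.80 (1.42 to 27.5), macrophage markers (10 genes, Spic at 0) 5.23 (0.739 to 7.25) and eosinophil markers (8 genes, Il5ra at 0) 2.56 (0.395 to 91.5, the highest being replicate 16). Megakaryocyte markers (11 genes) had a median of 2.15 (0.739 to 7.09), basophil and mast cell markers (7 genes) 2.11 (0.353 to 7.65) and B and plasma cell markers (7 genes, with Cd79a, Ebf1, Pax5 and Mzb1 at 0) 0.481 (0 to 4.47). The largest sums for eosinophil markers were 175.7 per 10000 in a library of myelocytes and 0.0420 in one of HSC. The part of these cell types in the results below was not tested.

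The promyelocytes were also set beside the other 618 dissected cells, as a description. Ctsg averaged 16.95 transcripts per 10000 in promyelocytes, with at least 1 transcript in 83.1% of them, and 0.537 in the other cells, a ratio of 31.6. Nkg7, a granule membrane protein, averaged 8.75 against 0.504 (17.3), and Ms4a3, a four-pass membrane protein of granulocyte and monocyte progenitors, 15.7 against 1.02 (15.3). The glutathione transferase Gstm1 had a ratio of 15.8, the insulin-like growth factor binding protein Igfbp4 8.93, Srgn 6.79 (25.2 against 3.71), and the galactosyltransferase B4galt6 5.52. Fcnb averaged 8.53 in promyelocytes, with a transcript in 78.7% of them, against 1.82 in the other cells (4.68), and Ly6c2, a surface protein of myeloid cells, 45.9 against 11.1 (4.13). These ratios are over the 250 genes with at least 5 transcripts per 10000 in promyelocytes and carry no test, since the cells were chosen by their transcripts.

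The first comparison asked how promyelocytes differed from the myelocytes of the same libraries. Ctsg, Srgn and the tested endoplasmic reticulum and ribosomal protein genes were higher in promyelocytes, and the tested secondary granule and S100 genes were lower. Of 8 tested genes on the primary granule list, 5 were higher and 3, among them both lysozymes, lower. Transcripts were summed over the cells of each class in each of 11 libraries that held at least 3 of both (75 promyelocytes and 117 myelocytes), and 347 genes passed a filter on low counts. Elane, Mpo, Prtn3, Ngp, Camp and Ltf, which chose the cells, were not tested. By edgeR's quasi-likelihood test with the library as a block and a Benjamini-Hochberg adjusted p under 0.05, 117 genes were higher in promyelocytes (33.7% of those tested) and 122 lower (35.2%). With so many genes past the threshold, a gene's place among them says less than its size and its separation by library. When sums were scaled by plain library totals, 160 were higher and 72 lower, so that 68.97% of calls were higher in place of 48.95%, and the median of all genes moved to 0.29 from −0.14 on the log2 scale.

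Ctsg, cathepsin G, had the largest difference of the genes tested that were higher. Its level per library was lowest at 3.61, had a median of 16.6 and was highest at 33.1 transcripts per 10000 in promyelocytes, against 0, 0.137 and 1.05 in myelocytes. All 11 libraries were higher in promyelocytes and the classes did not overlap; the log2 fold change was 5.15 ± 0.26 (SE, approximated from the F statistic, as in all that follows; adjusted p = 9.56e-32, edgeR). Srgn, serglycin, followed with 17.9, 28.7 and 34.5 in promyelocytes against 0, 1.70 and 3.55 in myelocytes, again with no overlap, and a log2 fold change of 3.62 ± 0.19. Gstm1 had a log2 fold change of 2.78 ± 0.26 and the myeloid protein Plac8 2.62 ± 0.18, both higher in 11 of 11 libraries. Ms4a3 (1.93 ± 0.18) did not overlap between the classes, whereas the granule membrane tetraspanin Cd63 (0.62 ± 0.15) and Ly6c2 (0.78 ± 0.13) overlapped but were higher in promyelocytes in 11 of 11 libraries. Ly6c2 has a near-identical neighbour, Ly6c1, with which reads may be shared.

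Of the 17 listed primary granule genes 16 had transcripts and 8 were tested; 5 were higher in promyelocytes and 3 lower, with a median log2 fold change of 1.27 beside −0.14 over all genes tested. Those that were lower were the lysozymes Lyz1 (−3.45 ± 0.26) and Lyz2 (−3.50 ± 0.19), which break bacterial cell walls and are near-identical copies between which reads may be split, and the protease inhibitor Serpinb1a. Serpinb1a differed by −0.30 ± 0.13 (adjusted p = 0.0302, edgeR) and had the opposite sign, 0.12, with library totals. Its call was also lost with DESeq2 (adjusted p = 0.0636, DESeq2), with no replicate block and in most other alternatives. Fcnb, in contrast to Ctsg, was not separated: its levels per library were 2.22, 4.93 and 26.5 per 10000 in promyelocytes and 2.52, 6.57 and 24.2 in myelocytes, lowest, median and highest. It was higher in promyelocytes in 6 of 11 libraries, with a log2 fold change of −0.61 ± 0.21 (adjusted p = 0.0101, edgeR), a call that was lost with library totals (adjusted p = 0.468, edgeR) and without replicate 15 (0.062). The Fcnb call was also lost in other alternatives, among them promyelocyte thresholds of 20 and 80 per 10000 and no replicate block. Of 7 tested genes on the ficolin and late promyelocyte list, which includes Fcnb, 5 were lower in promyelocytes and 1 higher (median −0.80). Over all genes tested 35.2% were lower and 33.7% higher. The list's 11 measured genes summed to a median of 61.1 per 10000 in promyelocytes (12 libraries) and 160 in myelocytes (13).

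All 8 tested secondary granule genes were lower in promyelocytes, with a median log2 fold change of −2.35, also with library totals and with DESeq2. Lcn2, lipocalin 2, which binds bacterial iron carriers, had levels per library of 2.96, 9.96 and 24.9 per 10000 in promyelocytes, against 109, 175 and 337 in myelocytes. The classes did not overlap (log2 fold change −4.32 ± 0.24, adjusted p = 1.23e-29, edgeR). Cybb, the catalytic subunit of the phagocyte oxidase, was lower by 2.50 on the log2 scale (log2 fold change −2.50 ± 0.15), the chitinase-like Chi3l3 had −3.28 ± 0.27 and the neutrophil surface protein Cd177 −3.57 ± 0.24. S100a8 and S100a9, which together form calprotectin, had log2 fold changes of −2.24 ± 0.32 and −2.40 ± 0.34 and were lower in promyelocytes in 11 of 11 libraries. Even so S100a8 was abundant in promyelocytes, with 51.1, 210.3 and 357 transcripts per 10000 against 529, 753 and 967 in myelocytes. Cebpe was lower too (−1.08 ± 0.19), with levels of 2.48, 3.88 and 8.63 in promyelocytes and 4.98, 6.65 and 11.6 in myelocytes that overlapped, though it was lower in promyelocytes in 11 of 11 libraries.

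The genes of protein making and folding went the other way. Calr, calreticulin, a chaperone of the endoplasmic reticulum that also binds newly made myeloperoxidase, had 8.03, 13.1 and 19.4 transcripts per 10000 in promyelocytes against 0.314, 1.93 and 2.93 in myelocytes (log2 fold change 2.72 ± 0.21, adjusted p = 2.24e-20, edgeR). The 4 tested genes of endoplasmic reticulum folding and secretion, of 25 listed, were all higher in promyelocytes, with a median of 1.37. Beside Calr these were the disulphide isomerase P4hb (1.41 ± 0.20), the translocon subunit Sec61b (1.33 ± 0.23) and the chaperone Hspa5 (0.97 ± 0.23). Without the filter, all 25 summed to 67.1, 80.6 and 124 per 10000 in promyelocytes of 12 libraries, lowest, median and highest. In myelocytes of 13 libraries they summed to 20.1, 24.3 and 29.9. The elongation factor Eef1a1 (1.12 ± 0.13) did not overlap between the classes. All 69 tested ribosomal protein genes, a list taken afterwards by symbol and given as a description, were higher in promyelocytes, from 0.39 to 1.505 with a median of 1.0, under all 3 scalings. Genes of actin and migration were lower in promyelocytes for 12 of 13 tested (9 with library totals), with Actb at −1.27 ± 0.16, Tmsb4x, which binds actin monomers, at −0.95 ± 0.22 and the integrin chain Itgb2 at −1.79 ± 0.20.

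Mitotic genes were not higher in the earlier stage. Of 12 tested, 8 were lower in promyelocytes and 1 higher, with a median of −0.72, beside 35.2% lower and 33.7% higher over all genes tested. With library totals only 3 were lower and 2 higher. The chromatin protein Hmgb2 was lower by 1.14 on the log2 scale (−1.14 ± 0.14), the proliferation marker Mki67 had −1.15 ± 0.18, and the cyclin kinase subunit Cks1b was the 1 that was higher (0.52 ± 0.23, adjusted p = 0.0423, edgeR). Respiratory chain genes, with 1 higher and 1 lower of 12, were higher for 9 with library totals, so no direction was given to them. The haemoglobin gene named Beta-s was also lower in promyelocytes, at 2.22, 11.99 and 55.03 per 10000 against 3.91, 53.1 and 325 in myelocytes; the erythroblast markers summed to 0, 3.52 and 67.6 in the promyelocytes of 12 libraries, lowest, median and highest, and to 4.89, 13.4 and 114 in the myelocytes of 13. The part of these transcripts in the other differences was not tested.

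Promyelocytes held more transcripts and more kinds of gene than the myelocytes beside them. The median log2 number of transcripts per cell of a library was higher by 1.07 ± 0.59 on average (mean and SD of the paired differences, n = 11 libraries) and was higher in promyelocytes in 10 of 11 libraries, with p = 0.00195 by an exact 2-sided sign-flip permutation test. With every cell thinned to 1000 tags, the median number of genes per cell of a library was still higher in promyelocytes in 11 of 11 libraries. The difference was 91.4 ± 27.8 (mean and SD of the paired differences, n = 11 libraries). The same exact permutation test gave p = 0.000977, the smallest it can give for that number of libraries. The genes that chose the cells bear on this number, since their tags leave fewer for other genes. Ngp, Camp and Ltf summed to a median of 947 transcripts per 10000 over all myelocytes. Elane, Mpo and Prtn3 summed to a median of 159 per 10000 over all promyelocytes. The test cannot tell this effect of the choice from a difference in other genes, and the number of genes without these tags was not tested. Median transcripts per cell, unthinned, were 5254 in all promyelocytes (1018 to 19972) and 2809 in all myelocytes, and median genes per cell 2078 and 1139.

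The second comparison set promyelocytes against the sorted HSC at the other end of differentiation. All granule lists were higher in promyelocytes, as were mitotic genes, and stem cell markers were lower. The test used 12 dissected libraries with at least 3 promyelocytes (83 cells) and 3 sorted libraries (243 cells). Of 1260 genes tested, 294 were higher in promyelocytes (23.3%) and 257 lower (20.4%) by edgeR's quasi-likelihood test at a Benjamini-Hochberg adjusted p under 0.05. No library held both, so cell type cannot be told apart from dissection, sorting and sequencing run, and the sorted libraries may be plates of 1 sort. With library totals 347 were higher and 163 lower, which made 68.04% of the calls higher in place of 53.4%; with no filter on low counts 660 were higher and 2289 lower (22.4% higher), and without sorted replicate 3 the counts were 195 and 143.

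Transcripts of several granule and myeloid genes were absent from the HSC. Ctsg had 1110 transcripts in the promyelocytes of the 12 libraries and 0 in the 243 HSC, at least 383.5-fold higher in promyelocytes when 3 transcripts are allowed for the HSC as a whole. Fcnb had 415 against 0 (at least 143-fold higher), Ly6c2 2345 against 0 (at least 810.2-fold higher) and Lcn2 770 against 0 (at least 266-fold higher). S100a9 had 11774 against 3, a ratio of 4068 with a counting interval of 1392 to 19730, and Camp 6219 against 1 (6446, 1157 to 254655). All 12 tested genes of the primary granule list were higher in promyelocytes with every scaling, as were all 11 of the secondary granule list. So were all 9 of the ficolin and late promyelocyte list. Genes with no or almost no HSC transcripts could pass the filter only through promyelocytes, so the direction of their calls was set beforehand. In list order, the HSC had transcripts of 13 of 17, 6 of 13 and 7 of 11 measured genes.

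The list of primary granule genes also holds the protease inhibitor Serpinb1a, which was present in promyelocytes and HSC. It had 12.02, 28.4 and 49.8 transcripts per 10000 in promyelocytes, lowest, median and highest. In the 3 HSC libraries it had 0.599, 0.722 and 0.881 (log2 fold change 4.87 ± 0.46, adjusted p = 3.26e-12, edgeR). Srgn was already present in the HSC, at 2.82, 8.28 and 8.72, and was higher in promyelocytes at 17.9, 27.8 and 34.5, with no overlap (1.72 ± 0.33). Nkg7 (4.55 ± 0.49), the serine protease Prss57 (5.23 ± 0.50) and Plac8 (4.15 ± 0.44) were higher as well.

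Of 10 tested transcription factors of the granulocyte line, 5 were higher and 3 lower in promyelocytes, beside 23.3% higher and 20.4% lower over all genes tested. Cebpe had 232 transcripts against 1 in the HSC, a ratio of 241 with a counting interval of 42.7 to 9539. Gfi1, a repressor needed for neutrophil formation, had levels of 1.06, 3.45 and 10.8 in promyelocytes and 0.336, 0.342 and 0.444 in the HSC (2.98 ± 0.43). Cebpb had a log2 fold change of 2.20 ± 0.53, whereas Etv6 (−1.83 ± 0.33) and Myc (−1.54 ± 0.51, adjusted p = 0.0131, edgeR) were lower in promyelocytes. Myb, which is active in progenitors, did not pass the test (−0.51 ± 0.33, adjusted p = 0.215, edgeR). Its levels were 1.41, 4.21 and 7.32 in promyelocytes and 4.15, 4.53 and 6.61 in the HSC. Among 10 tested receptors and surface proteins 9 were higher in promyelocytes, including Csf3r, the receptor for granulocyte colony-stimulating factor (2.18 ± 0.41), and Csf2rb, the shared chain of the GM-CSF receptor (2.33 ± 0.49), neither of which overlapped with the HSC.

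All 7 tested stem cell markers were lower in promyelocytes. A marker near 0 in promyelocytes could pass the filter only through the HSC, so the direction of these calls was largely set beforehand. The summed level of all 16 markers was 0, 3.18 and 4.42 per 10000 in promyelocytes, lowest, median and highest, against 57.4, 61.3 and 72.9 in the HSC, and Procr, Mecom, Hoxb5 and Fgd5 were at 0 in promyelocytes. Hlf, a stem cell transcription factor, had levels of 0, 0.0555 and 0.758 in promyelocytes against 4.45, 7.09 and 7.83 in the HSC (log2 fold change −5.33 ± 0.41). The membrane proteins Ifitm1 (−7.29 ± 0.44) and Gpr56 (−7.26 ± 0.40) did not overlap either.

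Mitotic genes were higher in promyelocytes for 15 of 19 tested, with a median log2 fold change of 1.69 beside 0.01 over all genes, and Mki67 had levels of 1.48, 4.52 and 9.25 against 0.503, 1.0 and 1.03 in the HSC (2.26 ± 0.42). Endoplasmic reticulum genes were higher for 9 of 20 tested, with a median of 0.68, beside 23.3% higher over all genes tested. Ribosome biogenesis genes were lower for 5 of 9 tested (2 with library totals), with Npm1, a nucleolar protein, at −1.07 ± 0.33. Over all genes tested 20.4% were lower. Of 71 ribosomal proteins 48 were lower in promyelocytes (27 with library totals), whereas all 69 tested were higher than in myelocytes.

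The promyelocytes themselves ran from cells rich in Ctsg to cells rich in Fcnb. At the Ctsg end the cells had more Calr, Srgn and ribosomal protein transcripts and few secondary granule transcripts. At the Fcnb end they had far more S100a8, S100a9 and Camp transcripts and less of every rule gene. Of the 89 cells, 46 held more Ctsg than Fcnb transcripts, 34 more Fcnb than Ctsg and 9 equal numbers, 3 of these having neither. Both genes were found in 58 cells, Ctsg was absent in 15 and Fcnb in 19, and the Spearman rho between their levels was −0.29 over the 89 cells. The balance, log2 of Ctsg plus 1 over Fcnb plus 1 transcripts, had a median of 0.50 and ran from −4.59 to 5.23, with 25 cells within 1 log2 unit of an even balance.

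**Figure D2:**
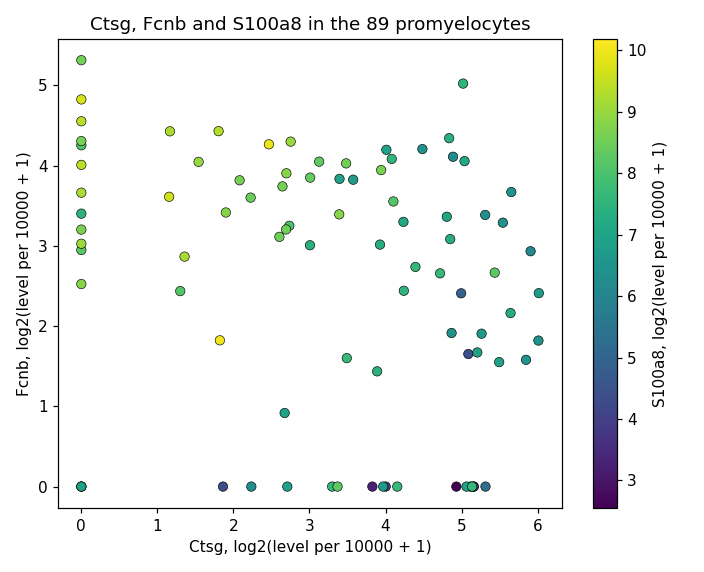
Each point is 1 of 89 promyelocytes, placed by Ctsg on the x axis and Fcnb on the y axis, both as log2 of transcripts per 10000 plus 1, and coloured by S100a8 on the same scale. Cells fill the space between the axes, and S100a8 tends to be higher in cells with more Fcnb than Ctsg. The highest S100a8 level, 1166 per 10000, was in a cell with neither gene.

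Ranked by this balance and divided into 4 steps of 23, 22, 22 and 22 cells, from the Ctsg end to the Fcnb end, mean Ctsg was 36.6, 20.3, 8.20 and 1.78 and mean Fcnb 1.75, 6.57, 10.4 and 15.8 transcripts per 10000. The means of the 3 rule genes were highest in the second step, but not all of their medians were. Mpo averaged 63.6, 77.6, 37.8 and 31.4, while its medians were 55.8, 43.3, 33.2 and 24.8, in the order of Ctsg. Prtn3 averaged 79.3, 87.5, 45.6 and 36.6, with medians of 75.9, 84.8, 41.6 and 31.04. Elane averaged 67.7, 82.7, 67.997 and 41.8, with medians of 69.8, 71.1, 67.4 and 35.5, and so differed little before the last step. Secondary granule transcripts were higher toward the Fcnb end: Camp averaged 8.597, 31.98, 143 and 322, Ngp 4.13, 16.98, 79.6 and 165, and Ltf, lactoferrin, only 0.695, 1.07, 7.38 and 8.17. The number of cells with at least 100 per 10000 of Ngp, Camp and Ltf was 1, 2, 13 and 20. Each step held cells of 8 or more libraries, and the median transcripts per cell were 8009, 4747, 3612 and 6018, which did not follow the same order (Spearman rho of the balance with transcripts 0.199 over 89 cells).

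Transcripts of the regulators were few. Cebpe averaged 2.79, 4.16, 6.13 and 7.37 transcripts per 10000 over the steps from the Ctsg end. Gfi1 averaged 4.86, 4.98, 4.61 and 1.48, with medians of 5.56, 5.13, 2.58 and 1.29. Myb averaged 5.96, 6.402, 2.59 and 2.24, with a step between the first pair of steps and the second pair. The progenitor receptor Kit was low throughout, at 1.23, 1.02, 0.763 and 1.10, and Cd34 was found in the first 2 steps (0.224 and 0.120) and at 0 in the others. Mki67 averaged 4.09, 4.59, 6.31 and 5.87 and Ly6c2 49.7, 45.9, 41.3 and 46.5, with little change along the range. Beside the balance no error is given for these means, since cells of 1 library are not replicates.

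**Figure D3:**
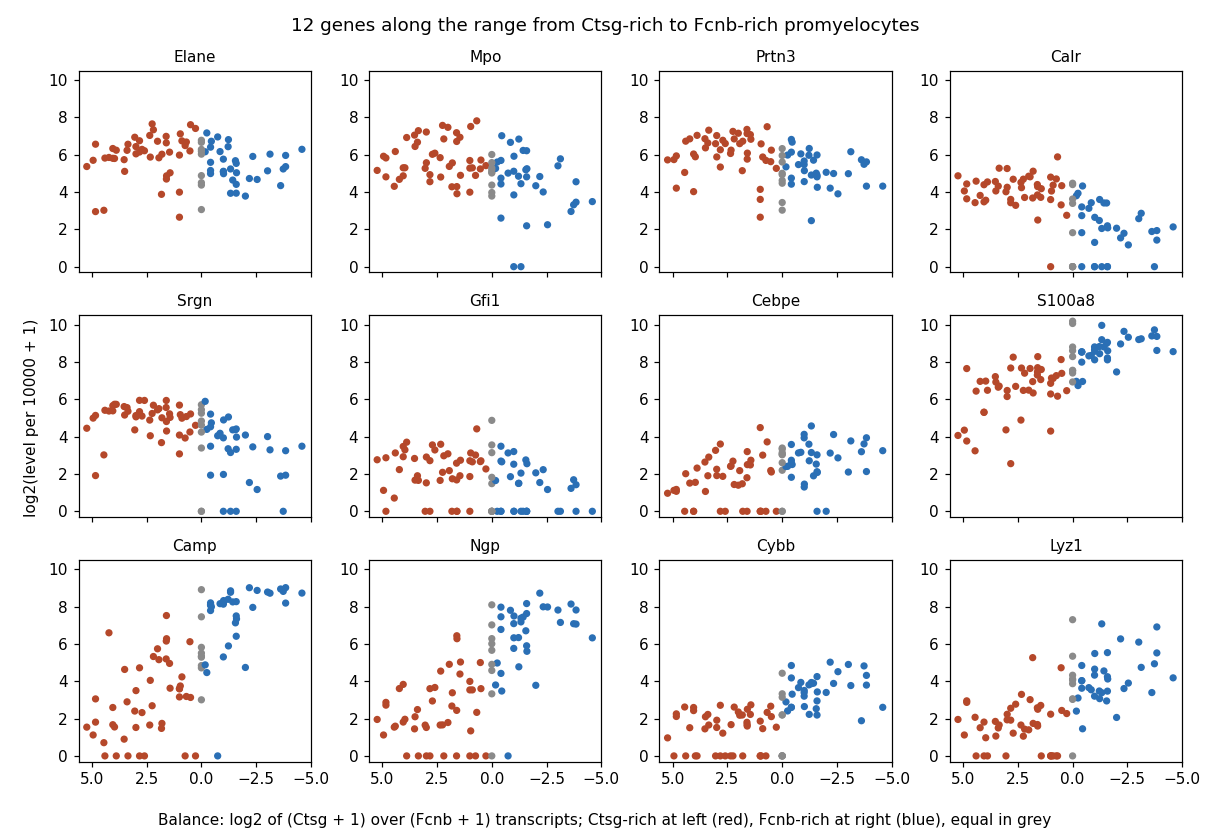
Levels of 12 genes, as log2 of transcripts per 10000 plus 1, against the balance of Ctsg to Fcnb in 89 promyelocytes, with the Ctsg end at the left; red, blue and grey points are Ctsg-rich, Fcnb-rich and equal cells. Calr and Srgn lie higher at the left, and S100a8, Camp, Ngp, Cybb and Lyz1 higher at the right.

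Over the 2481 genes found in at least 30% of the promyelocytes, 1758 had a rho above 0, with a median of 0.09. The genes most tied to the Fcnb end were S100a8 (−0.79), Camp (−0.78), S100a9 (−0.78), Ngp (−0.74), Lyz1 (−0.69), Lcn2 (−0.67), Cybb (−0.66) and Chi3l3 (−0.63). Those most tied to the Ctsg end were Calr (0.68), Gnb2l1, a ribosome-bound scaffold (0.62), and Srgn (0.60), followed by ribosomal proteins, Npm1 (0.57) and the elongation factor Eef2 (0.56). Within libraries, over the 6 that held enough cells, the median rho was −0.69 for S100a8, −0.74 for Camp and 0.62 for Calr. By list, 22 of 22 endoplasmic reticulum genes had a rho above 0 (median 0.36), 13 of 13 ribosome biogenesis genes (0.42), 29 of 30 respiratory chain genes (0.19) and 73 of 73 ribosomal proteins (0.41), against 3 of 16 actin and migration genes (−0.14) and 1 of 11 secondary granule genes (−0.46). Mitotic genes had 14 of 23 above 0 (0.06). All points share the same cells, totals and libraries, and the rho values are given without a test.

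To bring the range to the level of libraries, transcripts of Ctsg-rich and Fcnb-rich cells were summed within each of the 7 libraries that held at least 2 of both (34 and 23 cells). Calr, Npm1 and Pdia6 were higher in the Ctsg-rich cells of a library than in its Fcnb-rich cells, and S100a8, S100a9, Cybb and 5 of 6 tested secondary granule genes were lower. Of 312 genes tested, 45 were higher in Ctsg-rich cells (14.4%) and 47 lower (15.1%), by edgeR's quasi-likelihood test with the library as a block and a Benjamini-Hochberg adjusted p under 0.05. Ctsg and Fcnb, which chose the classes, were not tested. With library totals, 108 were higher and 36 lower, so that 75.0% of calls were higher in place of 48.9%, and the median of all genes moved to 0.25 from 0.02; with DESeq2 25 were higher and 40 lower. Leaving out 1 library moved the counts between 16 and 57 higher and 32 and 63 lower. Without replicate 16, in which the cell with eosinophil genes is 1 of 2 Ctsg-rich cells, they were 31 and 39.

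Calr had 15.3, 18.9 and 23.9 transcripts per 10000 in Ctsg-rich cells, lowest, median and highest of 7 libraries, against 1.39, 4.74 and 9.34 in Fcnb-rich cells (log2 fold change 1.64 ± 0.24, adjusted p = 1.75e-05, edgeR). Npm1 had 5.94, 6.99 and 15.1 in Ctsg-rich cells against 0, 2.49 and 3.72 in Fcnb-rich cells (1.87 ± 0.35, adjusted p = 0.000356, edgeR). Neither overlapped between the classes. Pdia6, a disulphide isomerase (1.74 ± 0.39), the nucleolar protein Ncl (1.10 ± 0.31), Gnb2l1 (0.89 ± 0.17) and Plac8 (0.70 ± 0.15) were higher in Ctsg-rich cells in 7 of 7 libraries, with overlap between libraries. Srgn was higher in 6 of 7 libraries, at 17.6, 31.01 and 41.8 in Ctsg-rich cells against 1.58, 14 and 20.8 in Fcnb-rich cells (1.18 ± 0.34, adjusted p = 0.0328, edgeR). That call was lost without replicate 15 (adjusted p = 0.083, edgeR), 16 (0.102) or 17 (0.075).

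Secondary granule genes were lower in Ctsg-rich cells for 5 of 6 tested, under all 3 scalings. Camp had 1.61, 14.9 and 50.9 transcripts per 10000 in Ctsg-rich cells and 83.2, 286 and 366 in Fcnb-rich cells, with no overlap (−4.37 ± 0.63, adjusted p = 0.00129, edgeR). Ngp had 3.22, 4.28 and 22.96 in Ctsg-rich cells and 26.4, 142 and 267 in Fcnb-rich cells (−4.56 ± 0.63), and Lcn2 (−4.14 ± 0.46) and Chi3l3 (−3.87 ± 0.52) were separated in the same way. S100a9 had 32.7, 82 and 135 in Ctsg-rich cells against 389, 484 and 804 in Fcnb-rich cells (−2.88 ± 0.36, adjusted p = 2.03e-06, edgeR). S100a8 (−2.21 ± 0.35), Lyz1 (−2.81 ± 0.25) and Cybb (−2.40 ± 0.27) did not overlap between the classes either. Cebpe was lower in Ctsg-rich cells, at 1.12, 3.50 and 9.34 against 1.86, 6.32 and 12.2 in Fcnb-rich cells (−1.30 ± 0.37, adjusted p = 0.0111, edgeR), but its levels overlapped, it was higher in 2 of 7 libraries, and the call was lost without replicate 15 (0.059).

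**Figure D4:**
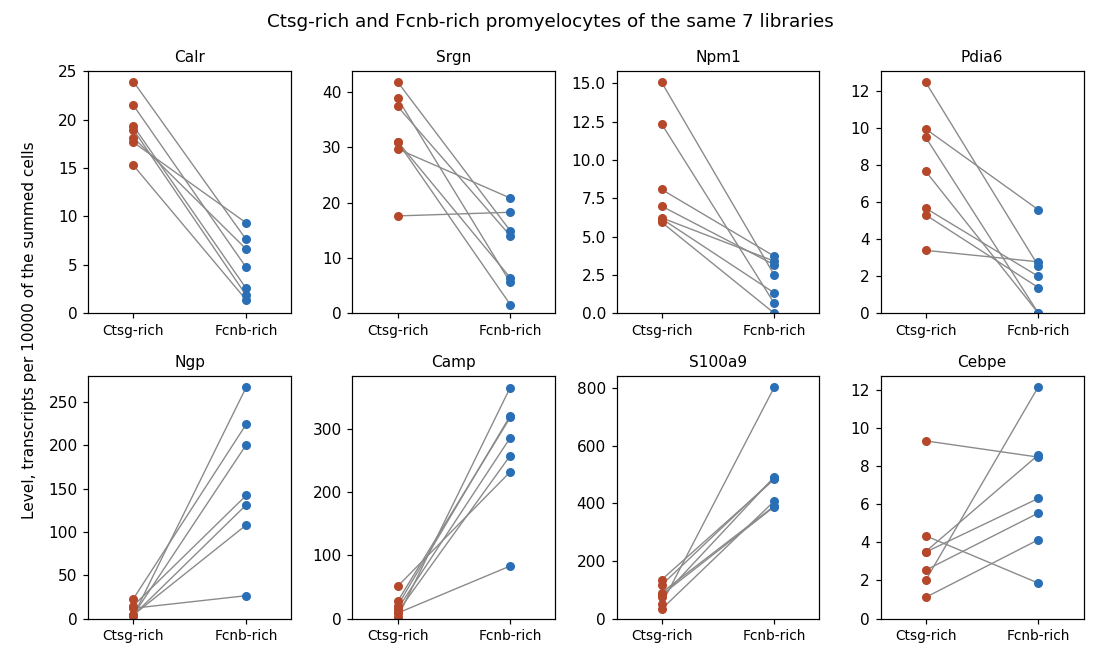
Transcripts per 10000 of the summed cells, on linear axes, of 8 genes in Ctsg-rich cells (left) and Fcnb-rich cells (right) of the same 7 libraries, each line joining the 2 sums of 1 library. Calr and Npm1 lie higher in Ctsg-rich cells in all 7 libraries, and Ngp, Camp and S100a9 lower in all 7.

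By list, 3 of 4 tested endoplasmic reticulum genes and 3 of 4 ribosome biogenesis genes were higher in Ctsg-rich cells (4 and 4 with library totals, 2 and 2 with DESeq2), with medians of 1.20 and 0.81 beside 0.02 over all genes. Actin and migration genes were lower for 6 of 13 tested, beside 15.1% of all genes tested. Among them were Tmsb4x (−1.07 ± 0.22, lower in 7 of 7 libraries) and Actb (−0.83 ± 0.20). Ribosomal proteins were higher for 26 of 69 tested, but for 63 with library totals and 13 with DESeq2, so their number rests on the scaling. Other genes of the promyelocyte programme did not pass the test: Ms4a3 had a log2 fold change of 0.30 ± 0.20 (adjusted p = 0.236, edgeR), Nkg7 0.25 ± 0.24 (0.441) and Ly6c2 −0.07 ± 0.17 (0.748). Of 10 mitotic genes 2 were lower (1 with library totals), a share near the 15.1% of all genes tested, Hmgb2 at −0.86 ± 0.24 and H2afz at −0.54 ± 0.14, and Mki67 did not pass (−0.75 ± 0.37, adjusted p = 0.121, edgeR). The summed eosinophil markers reached 504 per 10000 in the Ctsg-rich cells of replicate 16, and their part in these differences was not tested.

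Micro-dissected replicate 18, which the rule did not draw on, gave 3 cells over the same threshold among 83 cells with at least 1000 transcripts. Their sums of Elane, Mpo and Prtn3 were 65.5, 68.2 and 239.6 per 10000. In the same order they had 0, 3.92 and 17.5 of Ctsg and 24.9, 19.9 and 12.7 of Fcnb. S100a8 stood at 842, 733 and 264 and Camp at 501, 545 and 83.3, while Calr stood at 1.51, 5.89 and 11.5 and Srgn at 0, 5.89 and 17.5. The cell with the most Ctsg was thus the one with the least Fcnb, S100a8 and Camp and the most Calr and Srgn, with 3 cells and no test.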

How the data were processed

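CEL-seq libraries were grouped by the cell type in the labels. Replicates were numbered in accession order, which pairs nothing, so the library was the block where both classes came from the same libraries. The submitters' processing notes name BWA 0.6.2-r126 and mm10; for the annotation and the counting, no step is described in them. The authors deposited a table of estimated counts (expected counts of transcripts, corrected for the chance that tags repeat, as the non-whole values show) for 23536 genes and 1915 cells. A 4-base tag allows 256 tags a gene, and 8 promyelocytes had at least 200 tags of S100a8, so its highest levels are the least precise. The depth was 1018 to 19972 transcripts per promyelocyte, and 4500 to 109936 per summed library.

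Levels are transcripts per 10000 of a cell or sum. Sums were rounded and tested with edgeR 4.0.16 (filterByExpr, TMM, quasi-likelihood, Benjamini-Hochberg), with R 4.3.3, DESeq2 1.42.0 as an alternative, and Python 3.11.15 with scipy 1.17.1 for exact tests and intervals. Other deposited per-well values, also estimated counts per the labels, gave replicate 18 and 1 alternative. Thinning to 1000 tags left out 1 promyelocyte and 3 myelocytes.

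The members, gene lists and tests were chosen with earlier results of these data known. Genes were named as the 10 highest and 10 lowest called, the 3 most abundant of each list, the 15 highest ratios to the other dissected cells and the 10 highest and 10 lowest rank correlations. Cd63, Cebpb, Cks1b, Csf2rb, Etv6, Gfi1, Kit, Mki67, Myc, Nkg7, Prss57, B630005N14Rik and Slx1b fall outside that rule in at least 1 place and were chosen after their values were seen. Alternatives were other thresholds on cells, scaling by library totals, DESeq2, no filter on low counts, other minimum numbers of cells, no replicate block, the per-well files and each library left out.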

Additional observations from a re-analysis of the deposited data

Results flagged for a closer look

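The Ctsg-rich and Fcnb-rich comparison gave 86 sets of 7 library values, examined as log2 of the level plus 1 and printed below as levels. Chance flags about 1 set in 20. In 10 sets the gap of 1 library to its nearest neighbour exceeded 0.568 of the whole log2 range (Dixon's test). Replicate 5 was the low value in 4 of them, all in Fcnb-rich promyelocytes: Camp was 83.2 transcripts per 10000 (others 232 to 366), Ngp 26.4 (108 to 267), Hp 1.39 (9.30 to 19.5) and Etfb 0 (1.58 to 4.03). This is the library in which 5 promyelocytes held erythroid genes. In Ctsg-rich promyelocytes replicate 10 was low in S100a8, at 41.9 (99.3 to 148), and in Srgn, at 17.6 (29.7 to 41.8). Replicate 16, which holds the cell with eosinophil genes, was high in Cybb among Ctsg-rich promyelocytes, at 4.15 (1.88 to 2.54). Among Fcnb-rich promyelocytes replicate 15 was high in S100a9, at 804 (389 to 492), replicate 13 in Cox8a, at 12.6 (5.55 to 7.46), and replicate 17 was low in Anxa1, at 7.62 (13.8 to 20.5). The reasons were not tested.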

How the results depend on the processing

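Beside 117 higher and 122 lower genes against myelocytes, library totals gave 72 lower and no filter on low counts gave 400 higher and 186 lower; 1146 of 1214 values of named genes kept their direction and side of the threshold, 48 lost the call, 18 gained it and 2 changed sign, both of Serpinb1a (0.12 with library totals, 0.047 with no filter). Beside 294 and 257 against HSC, a minimum of 500 transcripts per cell gave 165 and 130, a minimum of 2000 gave 162 lower, library totals 163 lower, no filter 660 and 2289, at least 1 cell per sum 163 and 160, and sorted libraries of at least 2 cells 151 lower; 1449 of 1513 values kept direction and side. Beside 45 and 47 between Ctsg-rich and Fcnb-rich cells, higher genes numbered 13 at 80 rule-gene transcripts per 10000, 28 at 500 transcripts per cell, 108 with library totals, 25 with DESeq2, 17 with no filter (24 lower), 17 with at least 1 cell per sum and 22 with no replicate block (32 lower); 705 of 803 values kept direction and side. With no replicate block, that is without the library term, 107 were higher and 102 lower against myelocytes. The causes were not tested.

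Leaving out 1 library gave 112 to 122 higher and 105 to 135 lower genes against myelocytes, 195 to 319 and 143 to 287 against HSC, and 16 to 57 and 32 to 63 between Ctsg-rich and Fcnb-rich cells. Against HSC only the loss of sorted replicate 3 moved a count by over 1.5 times. Between Ctsg-rich and Fcnb-rich cells the higher genes fell to 18 without replicate 10, 28 without 11, 27 without 15 and 16 without 17. Differences per cell against myelocytes stayed between 0.944 and 1.17 for log2 transcripts (exact permutation p 0.00195 to 0.00391) and between 86.2 and 95.2 for genes (exact permutation p 0.00195). Without replicates 1 to 5, an alternative chosen after seeing the data, 131 and 133 genes were called against myelocytes, 383 and 302 against HSC, and 57 and 63 between Ctsg-rich and Fcnb-rich cells, and 69 promyelocytes made up 11.3% of a library. At thresholds of 20 and 80 per 10000 there were 122 and 71 promyelocytes. The Ctsg and Fcnb comparison was not run with 5 cells per sum, or without cells holding secondary granule transcripts, as too few libraries were left.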
